A study of Homo sapiens with 24 samples.

Results

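The 33 genes described here carry glucose through glycolysis or are classical targets of the hypoxia-inducible factors (HIF). They were taken as a fixed list, looked up by Ensembl identifier among the 60279 genes of the count tables, and all 33 were found and passed the filter on low counts. The list holds 2 glucose transporters, 17 glycolytic enzymes, 3 regulators of glycolytic flux and 11 further HIF targets. RNA was measured in SW872 cells, an established human liposarcoma line, stably transduced with a retroviral vector that was empty (EV) or carried a Flag-tagged construct, in 8 groups of 3 libraries. The constructs were the fusion proteins TAZ-CAMTA1 and YAP-TFE3, the hyperactive forms TAZ4SA and YAP5SA, in which serines are replaced by alanine, and full-length CAMTA1 and TFE3. TAZ-CAMTA1, TAZ4SA, YAP-TFE3, YAP5SA, TFE3 and EV cells were collected 48 h after confluence, whereas CAMTA1 cells and a separate set of empty vector libraries (EVsub) were sub-confluent. The expression came from a viral vector in 1 cell line, so all groups share the mutations of that line and none has the genomic fusion itself.

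Glycolysis splits glucose into pyruvate, which lactate dehydrogenase can reduce to lactate, and many of its steps are served by several isoenzymes with different regulation. HIF1A and EPAS1 are oxygen-labile subunits that pair with ARNT and bind the core sequence A/GCGTG near genes for glucose uptake, glycolysis, pH control and vessel growth. YAP and TAZ are coactivators of TEAD transcription factors and leave the nucleus in dense cultures, while TFE3 binds E-boxes of the form CACGTG.

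Promoter sequences are shown for 6 of the genes. They were chosen for a large difference between groups or for 2 or more of ACGTG or GCGTG in the window. The choice thus favours windows that hold these sequences. Each gene carries a comparison described below. CA9, ADM, PFKFB4 and LDHA were lower with YAP-TFE3 than with YAP5SA. PGK1 was higher with the hyperactive forms than in EV, and ALDOC was the only member that passed the test with CAMTA1. The 250 bases before the RefSeq transcription start (build GRCh38.p14) are given on the strand of the gene, and capitals mark ACGTG or GCGTG on either strand, with CACGTG, which contains ACGTG, marked in full. The windows are chr9:35673678-35673927 on the plus strand for CA9, chr11:10304823-10305072 on the plus strand for ADM, chr3:48556804-48557053 on the minus strand for PFKFB4, chrX:78103998-78104247 on the plus strand for PGK1, chr11:18394313-18394562 on the plus strand for LDHA and chr17:28576896-28577145 on the minus strand for ALDOC.
CA9: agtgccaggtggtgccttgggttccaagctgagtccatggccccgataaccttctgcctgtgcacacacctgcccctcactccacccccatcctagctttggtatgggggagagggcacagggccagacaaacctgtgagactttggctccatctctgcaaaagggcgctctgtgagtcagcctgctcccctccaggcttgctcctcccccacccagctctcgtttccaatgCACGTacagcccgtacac
ADM: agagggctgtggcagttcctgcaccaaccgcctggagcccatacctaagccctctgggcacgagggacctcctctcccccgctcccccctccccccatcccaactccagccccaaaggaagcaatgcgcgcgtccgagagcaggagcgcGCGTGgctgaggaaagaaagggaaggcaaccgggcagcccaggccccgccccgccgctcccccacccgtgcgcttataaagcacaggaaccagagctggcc
PFKFB4: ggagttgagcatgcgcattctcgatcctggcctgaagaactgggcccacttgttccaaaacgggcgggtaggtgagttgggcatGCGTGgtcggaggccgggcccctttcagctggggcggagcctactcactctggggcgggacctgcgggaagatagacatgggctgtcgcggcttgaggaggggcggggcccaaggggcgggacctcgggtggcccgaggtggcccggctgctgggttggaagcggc
PGK1: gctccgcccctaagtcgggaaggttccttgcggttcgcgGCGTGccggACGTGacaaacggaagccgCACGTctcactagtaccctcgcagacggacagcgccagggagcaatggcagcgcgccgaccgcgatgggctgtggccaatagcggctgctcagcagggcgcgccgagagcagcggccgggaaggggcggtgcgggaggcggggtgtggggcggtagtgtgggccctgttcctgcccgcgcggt
LDHA: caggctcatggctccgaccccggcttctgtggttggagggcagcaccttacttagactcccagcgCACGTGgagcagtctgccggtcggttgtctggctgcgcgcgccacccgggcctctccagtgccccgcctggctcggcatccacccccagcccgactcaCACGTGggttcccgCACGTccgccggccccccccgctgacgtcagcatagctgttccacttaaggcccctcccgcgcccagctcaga
ALDOC: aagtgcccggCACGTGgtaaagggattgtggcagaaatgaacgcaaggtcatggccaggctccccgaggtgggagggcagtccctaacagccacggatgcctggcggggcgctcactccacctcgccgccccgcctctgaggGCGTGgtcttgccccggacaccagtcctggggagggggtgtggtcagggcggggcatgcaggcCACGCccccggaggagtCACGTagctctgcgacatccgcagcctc

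The CA9 window held 1 marked sequence, with its first base at position -18 from the start, ADM and PFKFB4 held 1 each, PGK1 and LDHA held 3 each and ALDOC held 4. Over windows of 250 bases before to 50 after a start, 29 of the 33 genes had an entry in the RefSeq table, with 52 windows in all. Of these, 26 genes had ACGTG or GCGTG on either strand in at least 1 window, and some genes had several windows. By window, ACGTG or GCGTG was in 67.3% of those of these genes and in 48.4% of all windows. The shares with 2 or more were 21.2% and 20.3%. ACGTG was in 40.4% of the 52 windows and in 21.4% of the 35116 windows of all genes. GCGTG was in 40.4% and 36.5%, and CACGTG in 15.4% and 7.26%. The TEAD sequence GGAATG, also searched on both strands, was in 13.5% of the windows of these genes and 14% of all windows. These shares describe the letters in the windows and not binding. SLC2A3, VEGFA, BNIP3L and NDRG1 were not among the 29.

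Each library held between 19700277 and 35287476 counts. Levels are given as CPM, the count of a gene as parts per 1000000 of the library size, itself scaled by TMM (trimmed mean of M-values) so that most genes keep 1 level across libraries, and differences are log2 fold changes with a standard error (SE) and a p-value from the quasi-likelihood test of edgeR, adjusted over the 19997 genes tested and called under 0.05. VIM and FN1, markers of mesenchymal cells, were at group means of 472 to 1086 CPM and 1177 to 5517 CPM. The leukocyte gene PTPRC was at most 0.0476 CPM in any library, and the adipocyte gene ADIPOQ had 0 counts throughout. Other markers were present. The adipocyte gene PPARG had 610 to 3193 counts per library, and FABP4 had 17 to 23 counts with YAP-TFE3 and at most 1 elsewhere. The endothelial genes KDR and CDH5 had 822 to 1439 and 644 to 1434 counts in EV. ESRP1, an epithelial gene, had 177 to 400 counts with YAP-TFE3. No cell type was inferred from these genes. CAMTA1 averaged 144 CPM in TAZ-CAMTA1 and 124 CPM in CAMTA1 libraries against 21.4 CPM in EV, YAP1 averaged 253 CPM in YAP5SA against 128 CPM in EV, and TFE3 averaged 336 CPM in TFE3 and 283 CPM in YAP-TFE3 against 119 CPM in EV. WWTR1, the gene of TAZ, averaged 204 CPM in EV but 134 CPM where the label is TAZ4SA, so its RNA does not bear out that label. WWTR1 was also below EV on average with TAZ-CAMTA1 (181 CPM), which carries TAZ sequence too, and with YAP-TFE3 (126 CPM) and YAP5SA (68.7 CPM). A low WWTR1 level is thus not particular to the label TAZ4SA and cannot decide whether it is right. How much of the RNA of a construct the counts hold was not tested. The paper shows a western blot of Flag-tagged TAZ4SA in SW872 cells. Directions drawn from the libraries labelled TAZ4SA carry the doubt that the label was not borne out by RNA. The replicates are described as biological triplicates, and with 3 against 3 the smallest p of an exact permutation test is 0.1.

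The libraries numbered 3 stood apart for these genes. Within its group the number 3 library was the lowest of the 3 for 31 of the 33 genes in YAP5SA, 27 in TAZ-CAMTA1 and in TFE3, 26 in the libraries labelled TAZ4SA, 22 in EV and 18 in EVsub and in CAMTA1. Over all genes tested, the number 3 library was the lowest for 30.6% to 41.5% of genes in these 7 groups. In YAP-TFE3 the order differed, with number 1 lowest for 20 genes and number 3 for 11. What set these libraries apart was not tested, so the counts over the 33 genes are also given with all 8 number 3 libraries left out, an alternative chosen after the data were seen.

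**Figure D1:**
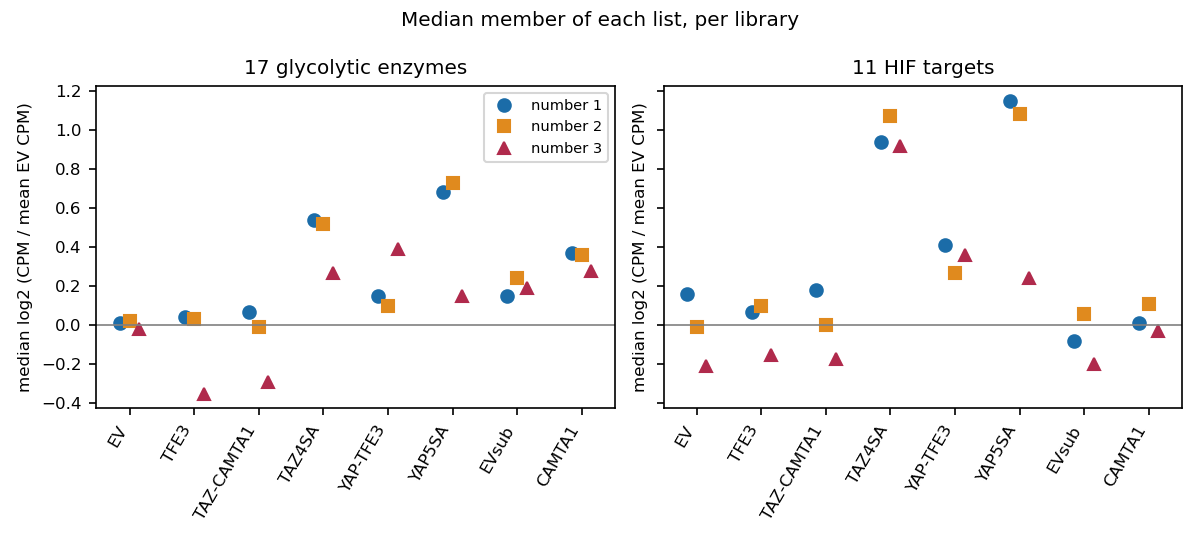
Median log2 ratio of CPM to the mean EV level over the 17 enzymes (left) and the 11 HIF targets (right), 1 point per library, with symbols for the library number. For the HIF targets the YAP5SA libraries 1 and 2 were at 1.15 and 1.08 and library 3 at 0.24, while the 3 libraries labelled TAZ4SA lay between 0.92 and 1.07.

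At baseline the enzymes of lower glycolysis dominated. Per kilobase of exon, EV cells held 705 ± 8.85 CPM per kb (SD, n = 3) of GAPDH, the dehydrogenase at the midpoint of the pathway. PKM (pyruvate kinase) followed at 373 ± 20.6, ENO1 (enolase) at 347 ± 20.5 and TPI1 (triose phosphate isomerase) at 338 ± 4.78 CPM per kb. The spread of ENO1 overlapped those of both its neighbours. This order depends on the divisor, the merged length of all annotated exons of a gene, 8572 bases for PKM and 2396 for GAPDH. Undivided, EV library 1 held 89312 counts of PKM and 49663 of GAPDH. SLC2A1 (GLUT1) and SLC2A3 (GLUT3) were at 8.74 ± 1.07 and 6.69 ± 1.04 CPM per kb. Among the HIF targets the level ran from 34.5 ± 5.23 CPM per kb for BNIP3L, a mitophagy receptor, down to 0.644 ± 0.608 for CA9, the membrane carbonic anhydrase, which rested on 59, 25 and 2 counts in the 3 EV libraries. The 17 enzymes together took 1.25 ± 0.0321% of all counts in EV.

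Both hyperactive forms were compared with EV to ask what active YAP and TAZ do in dense cells. With YAP5SA, 24 of the 33 genes rose and 0 fell (edgeR; 2 were lower at an unadjusted p under 0.05, and DESeq2 called 25 higher and 0 lower), where 44.3% of all tested genes were called, 22.7% higher and 21.6% lower. In the libraries labelled TAZ4SA, 19 rose and 0 fell (1 lower at an unadjusted p under 0.05, and 0 lower with DESeq2), where 49.2% of all tested genes were called, 25.1% higher and 24.2% lower. The median log2 fold change over the 33 genes was 0.55 and 0.59, and over all genes -0.04 and -0.03. Scaling by total counts alone moved the median of all genes by -0.185 with YAP5SA and by -0.198 in the libraries labelled TAZ4SA. The counts for these 33 genes then became 19 higher and 2 lower, and 19 higher and 4 lower. Over all genes, 3134 were then higher and 6842 lower with YAP5SA, and 3355 higher and 7317 lower in the libraries labelled TAZ4SA. Among the 33 genes, the added lower calls were HK1 and KDM3A in both groups and BNIP3L and EGLN3 in the libraries labelled TAZ4SA. Without the number 3 libraries the counts were 26 higher and 0 lower with YAP5SA, and 24 higher and 2 lower in the libraries labelled TAZ4SA. Calls over all genes rose too, from 8859 to 9392 with YAP5SA and from 9848 to 10205 in the libraries labelled TAZ4SA. Both comparisons use the same 3 EV libraries.

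**Figure D2:**
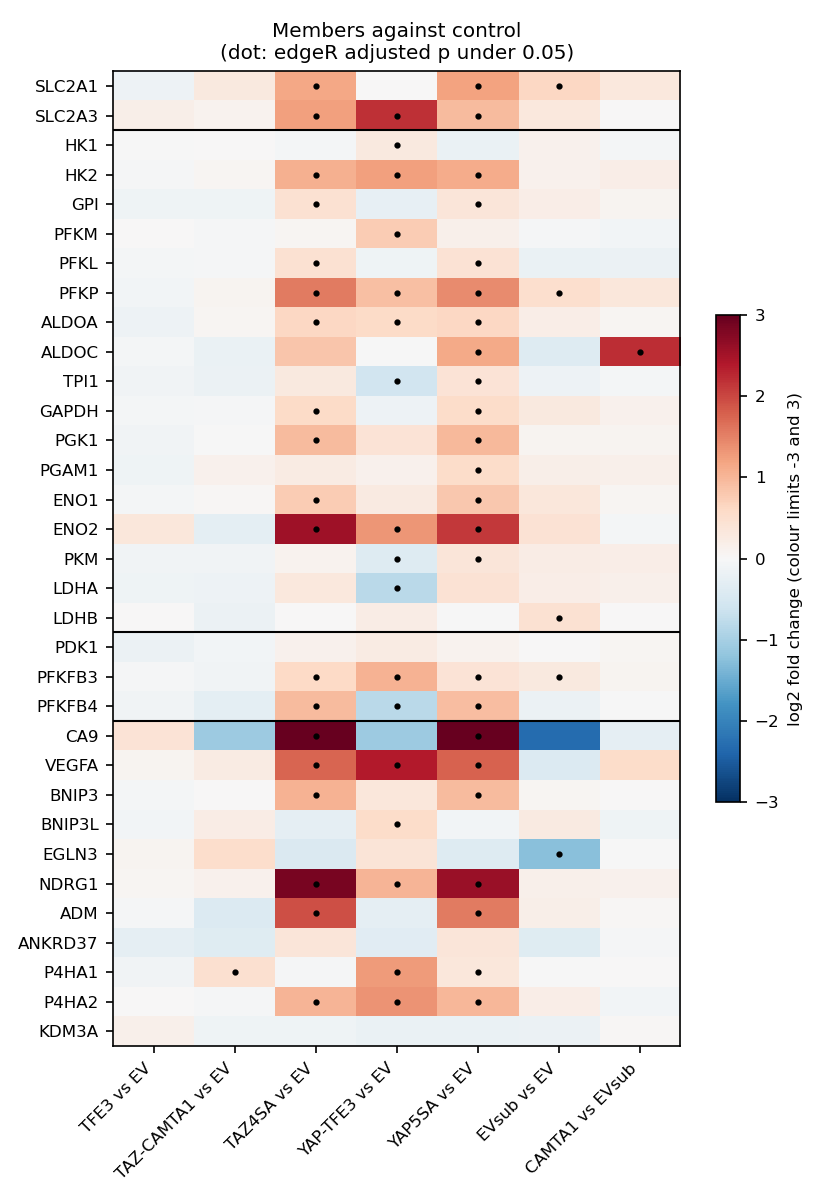
Log2 fold change of the 33 genes (rows, divided into transporters, enzymes, regulators and HIF targets) in 7 comparisons with the matching control (columns), where a dot marks an edgeR adjusted p under 0.05. Red fills the TAZ4SA and YAP5SA columns for CA9, NDRG1, ENO2, VEGFA and ADM, TFE3 vs EV holds no dot, and YAP-TFE3 vs EV holds both red and blue dots.

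CA9 and NDRG1, both HIF targets, gave the largest differences, while the enzyme ENO2, given below, exceeded the HIF targets VEGFA and ADM. Of the 11 HIF targets, 7 rose with YAP5SA (63.6% called, against 44.3% of all tested genes). In the libraries labelled TAZ4SA 6 rose (54.5% against 49.2%). NDRG1, a stress-response gene induced in hypoxia, was at 97.2, 82.9 and 69.6 CPM in EV, at 637, 603 and 254 CPM with YAP5SA and at 599, 730 and 472 CPM in the libraries labelled TAZ4SA. All 6 libraries with a hyperactive form lay above the 3 EV libraries, and the log2 fold changes were 2.58 (SE 0.28, edgeR adjusted p = 6.97e-08) and 2.85 (SE 0.29, edgeR adjusted p = 1.62e-08). VEGFA, the vascular endothelial growth factor, was at 29.8, 24 and 29.9 CPM in EV, at 90, 93.3 and 101 CPM with YAP5SA and at 85.8, 93.7 and 102 CPM in the libraries labelled TAZ4SA. The groups did not overlap, the number 3 libraries were not low for this gene, and the log2 fold changes were 1.77 (SE 0.28, edgeR adjusted p = 1.54e-05) and 1.75 (SE 0.28, edgeR adjusted p = 1.51e-05). ADM, the vasodilator peptide adrenomedullin, was at 14.4, 12 and 12.3 CPM in EV, at 42, 47.5 and 23.8 CPM with YAP5SA and at 48.4, 56.2 and 42.9 CPM in the libraries labelled TAZ4SA. Again no library of a hyperactive form fell within the EV range, with log2 fold changes of 1.55 (SE 0.19) and 1.93 (SE 0.19).

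CA9 differed most in size and was the least even. It was at 2.04, 0.953 and 0.097 CPM in EV, at 14.5, 13.1 and 0.161 CPM with YAP5SA and at 8.68, 14 and 4.55 CPM in the libraries labelled TAZ4SA. The number 3 YAP5SA library, with 4 counts, lay within the EV range, while the other YAP5SA libraries and all 3 labelled TAZ4SA were above it. The log2 fold changes were 3.06 (SE 0.87, edgeR adjusted p = 0.00629) and 3.04 (SE 0.87, edgeR adjusted p = 0.00572). Among the other HIF targets, BNIP3, a mitophagy receptor like BNIP3L, rose by 0.96 and 1.05 on the log2 scale, although YAP5SA library 3, at 47.3 CPM, was within the EV range of 32.9 to 47.8 CPM, and P4HA2, a collagen prolyl hydroxylase, rose by 1.00 and 1.01. Reads of BNIP3 may be shared with its pseudogenes, which took 3.34% of the counts of both. P4HA1, the partner isoenzyme of P4HA2, rose by 0.35 with YAP5SA (SE 0.11, edgeR adjusted p = 0.0146), a call lost without EV library 2 or 3 or YAP5SA library 1, and was at -0.03 in the libraries labelled TAZ4SA. BNIP3L, ANKRD37, KDM3A (a histone demethylase) and EGLN3 (a prolyl hydroxylase that marks HIF for degradation) did not pass in either comparison, with log2 fold changes between -0.43 and 0.37.

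**Figure D3:**
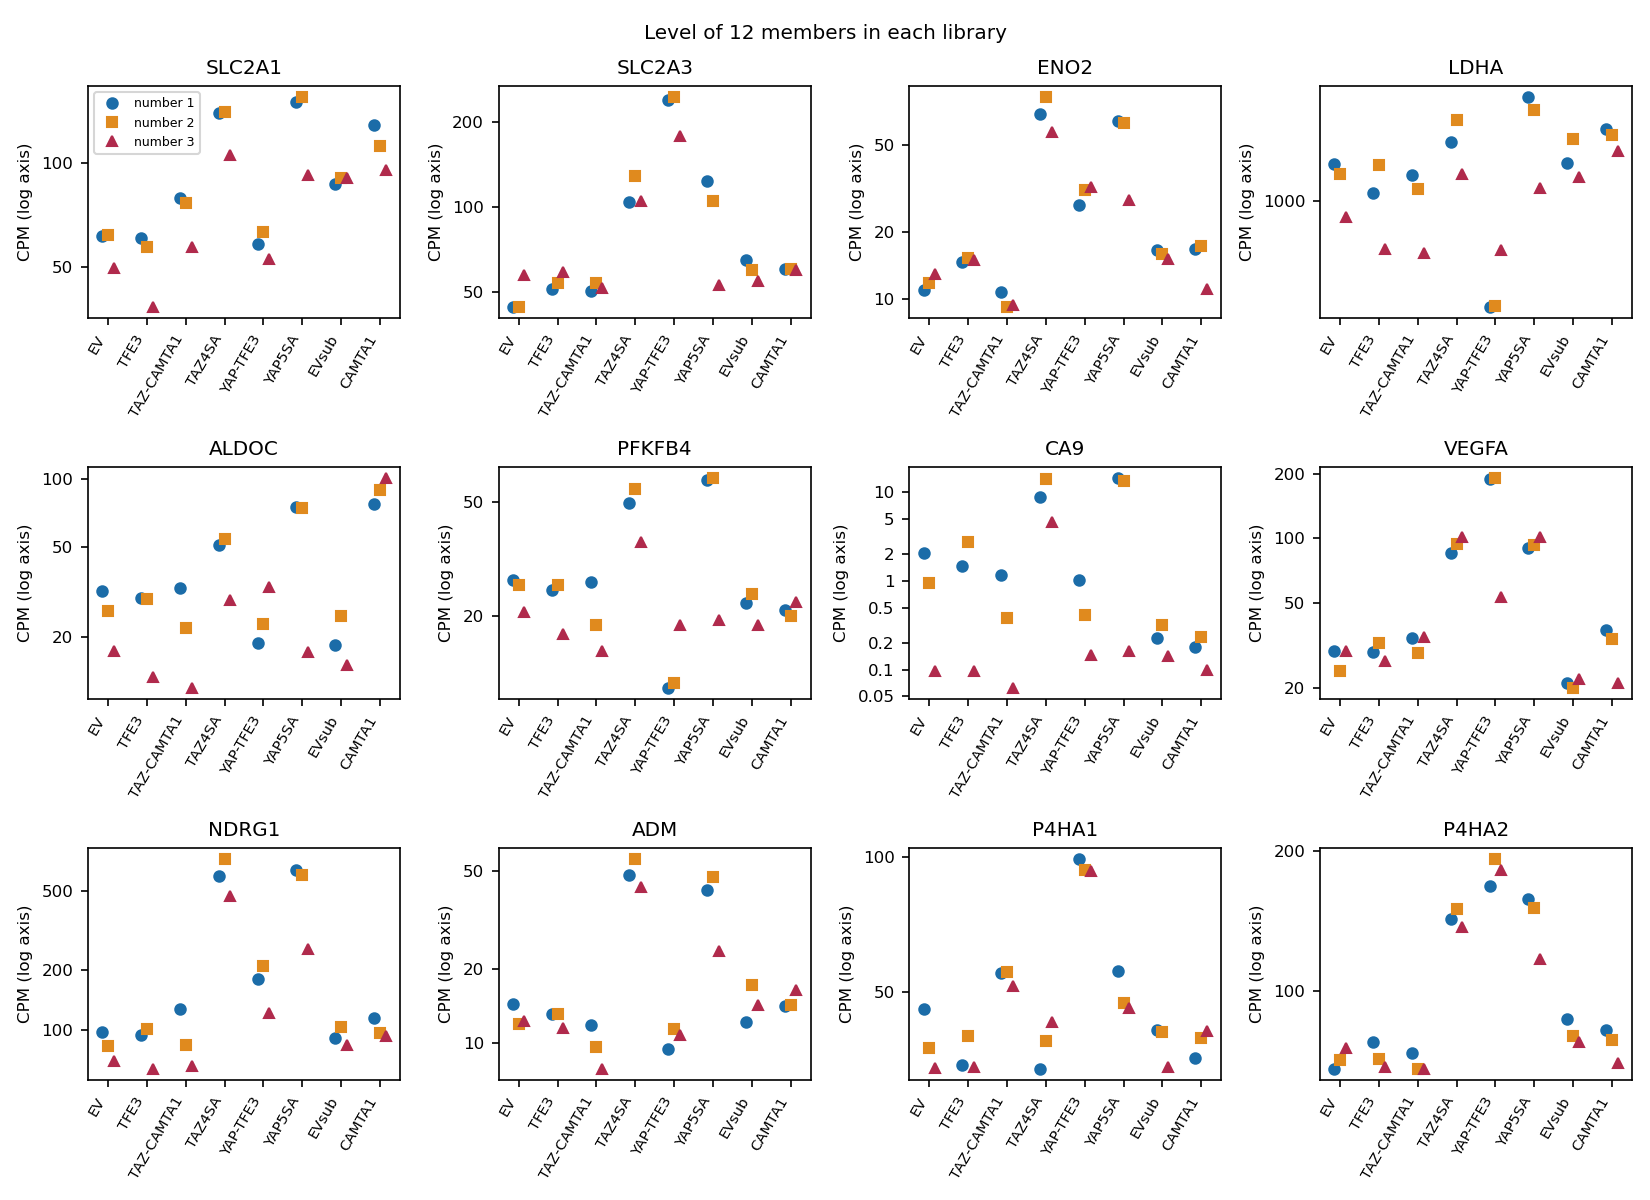
CPM (log axes) of 12 of the genes in every library of the 8 groups, with circles, squares and triangles for libraries 1, 2 and 3. The YAP5SA triangle is the lowest of its group for every plotted gene but VEGFA, and for VEGFA the YAP-TFE3 triangle, at 53.3 CPM, lies far below its partners at 189 and 192 CPM.

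Of the 17 enzymes, 13 rose with YAP5SA (76.5% called, against 44.3% of all tested genes). In the libraries labelled TAZ4SA 9 rose, and their share of 52.9% was near the 49.2% of all tested genes called. The shares of all tested genes called higher were 22.7% and 25.1%. ENO2, the enolase isoenzyme first known from neurons, was at 10.9, 11.8 and 12.9 CPM in EV, at 64.3, 62.6 and 28.1 CPM with YAP5SA and at 69.1, 82.7 and 57.3 CPM in the libraries labelled TAZ4SA. Every library of both groups lay above EV, with log2 fold changes of 2.12 (SE 0.21, edgeR adjusted p = 1.86e-08) and 2.55 (SE 0.22, edgeR adjusted p = 9.2e-10). PFKP, the platelet-type phosphofructokinase, was at 78.5 to 79.4 CPM in EV, at 178 to 233 CPM with YAP5SA and at 217 to 245 CPM in the libraries labelled TAZ4SA, and rose by 1.42 (SE 0.11) and 1.57 (SE 0.11). HK2, the inducible hexokinase, rose by 1.12 and 1.07, and PGK1 (phosphoglycerate kinase) by 0.98 and 0.95. The exons of PGK1, PFKP, GPI, ALDOA, LDHB, PFKFB4 and NDRG1 overlap those of another gene on the same strand, so part of their counts is uncertain. GPI, PFKL, ALDOA, GAPDH and ENO1 rose in both comparisons by 0.36 to 0.81, and the call of GPI with YAP5SA was lost without YAP5SA library 1 or 2. ALDOC, TPI1, PGAM1 and PKM passed with YAP5SA, at 1.14, 0.41, 0.55 and 0.37, and were at 0.83, 0.30, 0.24 and 0.10 in the libraries labelled TAZ4SA without passing. Among these, the calls of ALDOC, TPI1 and PKM were lost in 4, 5 and 4 of the 6 fits that left out 1 library, and without the number 3 libraries they were at 1.37, 0.62 and 0.58. In the same fit all 4 genes also passed in the libraries labelled TAZ4SA, at 0.86 for ALDOC, 0.42 for TPI1, 0.32 for PGAM1 and 0.24 for PKM. HK1, PFKM, LDHA and LDHB did not pass in either, LDHA at 0.44 (edgeR adjusted p = 0.0576) and 0.31. LDHA passed in both without the number 3 libraries, at 0.51 and 0.30.

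The RNA of both glucose transporters and of both PFKFB enzymes rose as well. SLC2A1 was at 61.6, 62.2 and 49.7 CPM in EV and at 150, 156 and 92.6 CPM with YAP5SA, with no overlap, and rose by 1.20 (SE 0.18, edgeR adjusted p = 7.86e-06). In the libraries labelled TAZ4SA it was at 140, 141 and 106 CPM and rose by 1.16 (SE 0.18, edgeR adjusted p = 1.12e-05). SLC2A3 rose by 0.95 and 1.22, although the number 3 YAP5SA library, at 52.7 CPM, lay within the EV range of 44 to 57.2 CPM. PFKFB3 and PFKFB4, which make the fructose 2,6-bisphosphate that activates phosphofructokinase, rose by 0.41 and 0.93 with YAP5SA and by 0.59 and 0.95 in the libraries labelled TAZ4SA. PFKFB4 with YAP5SA was at 59.7, 61.1 and 19.4 CPM against 26.8, 25.7 and 20.8 CPM in EV, so that library 3 was below all EV libraries and the call was lost without YAP5SA library 1 or 2. PDK1, a kinase that inhibits pyruvate dehydrogenase, was at 0.11 and 0.14 and did not pass.

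With YAP-TFE3 the same genes went apart. Of the 33, 13 rose and 4 fell, where 48.2% of all tested genes were called, 25.6% higher and 22.6% lower, with a median of 0.27 over the 33 and -0.01 over all genes. With the number 3 libraries left out, 14 rose and 8 fell, and 9960 of all genes were called, against 9644 with all libraries. The HIF targets VEGFA, P4HA1, P4HA2, NDRG1 and BNIP3L rose, together with SLC2A3, HK1, HK2, PFKM, PFKP, ALDOA, ENO2 and PFKFB3. The call of HK1 (0.29) was lost without EV library 1 (edgeR adjusted p = 0.0505). LDHA, TPI1, PKM and PFKFB4 fell. CA9, ADM, BNIP3, EGLN3, ANKRD37 and KDM3A among the HIF targets did not pass, with 0 lower calls among the 11 (edgeR; 1 at an unadjusted p under 0.05, and 0 with DESeq2). KDM3A was called lower with scaling by total counts (-0.28, edgeR adjusted p = 0.013) and without the number 3 libraries (-0.23, edgeR adjusted p = 0.0311).

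Of the 2 transporters in the list, SLC2A3 rose with YAP-TFE3 and SLC2A1 did not pass. SLC2A3 was at 241, 247 and 179 CPM against 44, 44.3 and 57.2 CPM in EV, with every YAP-TFE3 library above every EV library, and the log2 fold change was 2.20 (SE 0.19, edgeR adjusted p = 1.72e-09). SLC2A1 was at 58.6, 63.5 and 52.9 CPM, overlapping the EV range of 49.7 to 62.2 CPM, with a log2 fold change of 0.01 (SE 0.18). VEGFA was at 189, 192 and 53.3 CPM, all above EV but with library 3 far below its partners, and rose by 2.38 (SE 0.28, edgeR adjusted p = 2.22e-07), or by 2.82 without the number 3 libraries. P4HA1 was at 99.3, 93.6 and 93.1 CPM against 45.8, 37.5 and 33.8 CPM in EV, and rose by 1.28 (SE 0.11, edgeR adjusted p = 1.48e-09). P4HA2 rose by 1.35 (SE 0.10). All YAP-TFE3 libraries were above all EV libraries for both collagen hydroxylases.

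Of the genes that fell, TPI1 interconverts the triose phosphates, PKM makes pyruvate, LDHA favours its reduction to lactate and PFKFB4 regulates phosphofructokinase. LDHA was at 564, 567 and 770 CPM with YAP-TFE3 and at 1222, 1159 and 920 CPM in EV. The groups did not overlap, and LDHA fell by 0.80 on the log2 scale (SE 0.18, edgeR adjusted p = 0.000961). TPI1 was at 547, 592 and 700 CPM against 899, 923 and 918 CPM in EV, likewise without overlap, and fell by 0.58 (SE 0.16, edgeR adjusted p = 0.00431). PKM fell by 0.38 (SE 0.13, edgeR adjusted p = 0.0182), a call lost without EV library 3 or YAP-TFE3 library 1. PFKFB4 was at 11.2, 11.7 and 18.6 CPM against 26.8, 25.7 and 20.8 CPM in EV and fell by 0.82 (SE 0.29, edgeR adjusted p = 0.0236). Its groups did not overlap, but the call was lost without EV library 1 or 2 or without YAP-TFE3 library 1 or 2. HK2, at 101, 101 and 56 CPM against 32.9 to 39.5 CPM in EV, rose by 1.24 (SE 0.16), and PFKM, the muscle-type phosphofructokinase, rose by 0.76 (SE 0.08) from 115, 120 and 125 CPM to 184, 204 and 222 CPM. The 17 enzymes together took 1.07, 1.12 and 1.23% of counts with YAP-TFE3, below the EV range of 1.22 to 1.28% except for library 3, and 1.71, 1.77 and 1.24% with YAP5SA.

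The median of the list was near the EV level with TAZ-CAMTA1 and with TFE3. With TAZ-CAMTA1, P4HA1 alone passed among the 33 genes, where 4.98% of all tested genes were called, 3.55% higher and 1.44% lower, and the median over the 33 was -0.03. P4HA1 was at 55.1, 55.5 and 51.6 CPM against 45.8, 37.5 and 33.8 CPM in EV, with no overlap, and rose by 0.47 (SE 0.11, edgeR adjusted p = 0.0131). That call was lost without EV library 2 or 3, without TAZ-CAMTA1 library 1 or 2 (adjusted p up to 0.0954) and without the number 3 libraries (0.41, edgeR adjusted p = 0.051). In the latter fit SLC2A1, at 79.6, 76.8 and 57.3 CPM with TAZ-CAMTA1, passed in its place (0.34, edgeR adjusted p = 0.0214). Over all genes 921 were called in that fit, against 996 with all libraries. EGLN3 was at 50.9, 44.2 and 39.1 CPM with TAZ-CAMTA1, above the EV libraries at 31.4, 33.2 and 28.5 CPM, but did not pass. At an unadjusted p under 0.05 in edgeR, 2 of the 33 were higher with TAZ-CAMTA1 and 0 lower. None of the 17 enzymes passed with TAZ-CAMTA1 in edgeR, 0 did so at an unadjusted p under 0.05, and 0 did so in DESeq2. With TFE3, 0 of the 33 passed in edgeR, with or without the number 3 libraries, 0 at an unadjusted p under 0.05 and 0 in DESeq2, where 0.035% of all tested genes were called, and the log2 fold changes ran from -0.27 for ANKRD37 to 0.41 for CA9.

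Culture density and full-length CAMTA1 were examined in the sub-confluent libraries. In EVsub, 4 of the 33 genes were higher and 1 was lower than in confluent EV, where 36.8% of all tested genes were called, 19.8% higher and 17.1% lower. SLC2A1 was at 87.3, 90.9 and 90.5 CPM in EVsub, above its EV range, and was higher by 0.63 (SE 0.18, edgeR adjusted p = 0.00809), a call lost without EV library 3. PFKP was higher by 0.50, LDHB (the heart-type lactate dehydrogenase subunit) by 0.46 and PFKFB3 by 0.29. EGLN3 was at 11.6, 17.3 and 10.3 CPM in EVsub against 31.4, 33.2 and 28.5 CPM in EV, without overlap, and was lower, with a log2 fold change of -1.26 (SE 0.26, edgeR adjusted p = 0.000711). Without the number 3 libraries 10 genes were higher and 4 lower, and CA9, at 0.229, 0.316 and 0.142 CPM in EVsub, was then among the lower ones (-2.47, edgeR adjusted p = 0.00959). With scaling by total counts, 4 were higher and 3 lower. Over all genes, 6378 were called without the number 3 libraries, against 7368 with all libraries. With scaling by total counts, 3106 of all genes were higher and 4289 lower. The labels name density as the difference between the 2 sets, and other differences between them cannot be told apart from it.

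ALDOC was the only member that passed with CAMTA1, though it was not high with CAMTA1 alone. This brain-type aldolase was at 77.9, 89.5 and 102 CPM with CAMTA1 and at 18.4, 24.7 and 15 CPM in EVsub. Every CAMTA1 library was above every EVsub library, and the log2 fold change was 2.22 (SE 0.42, edgeR adjusted p = 0.00358), a call kept in all 6 fits that left out 1 library. It was the sole member called, 3.03% of the 33, where 1.83% of all tested genes were called, 1.26% higher and 0.57% lower. In confluent cells ALDOC was at 75.6, 74.7 and 17.1 CPM with YAP5SA, where it also passed against EV. In the libraries labelled TAZ4SA it was at 51, 54.2 and 29.2 CPM. Its exons overlap a gene on the opposite strand, and whether the counting used strand was not stated. The same limit holds for 15 of the 33 genes, ALDOC included, among them SLC2A1, VEGFA, CA9, P4HA1 and P4HA2. Without the number 3 libraries SLC2A1 (0.43), PFKP (0.46) and VEGFA (0.80) passed as well. Over all genes 742 were called in that fit, against 366 with all libraries. ALDOA, the main aldolase, was at 1056 CPM on average in CAMTA1 and 1011 CPM in EVsub and did not pass (0.06, SE 0.14). With TAZ-CAMTA1, which carries the C terminus of CAMTA1, ALDOC was at 32.8, 21.8 and 11.8 CPM against 31.9, 26.1 and 17.3 CPM in EV (-0.19, SE 0.41). The density of these cultures differed from that of CAMTA1, so the 2 differences are given side by side and were not tested against each other.

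Each fusion was then compared with the hyperactive form of its parent, which tests the differences seen above directly. For YAP-TFE3 against YAP5SA, 28 of the 33 genes passed, 9 higher and 19 lower, where 52.4% of all tested genes were called, 28.1% higher and 24.3% lower. The counts were 10 higher and 20 lower without the number 3 libraries, where 10971 of all genes were called, against 10485 with all libraries. CA9 was lower by a log2 fold change of -4.16 (SE 0.95, edgeR adjusted p = 0.000708), although the number 3 libraries, at 0.145 CPM with YAP-TFE3 and 0.161 CPM with YAP5SA, were alike. ADM was at 9.53, 11.4 and 10.8 CPM with YAP-TFE3, below every YAP5SA library (-1.83, SE 0.19, edgeR adjusted p = 1.78e-08). PFKFB4 (-1.75), NDRG1 (-1.55), LDHA (-1.23), SLC2A1 (-1.19), TPI1 (-0.98), PKM (-0.75) and GAPDH (-0.71) were lower too. SLC2A3 was higher by 1.24 (SE 0.19, edgeR adjusted p = 5.62e-06), and P4HA1 by 0.94 (SE 0.11, edgeR adjusted p = 1.7e-07), each with no overlap between the groups. PFKFB3, BNIP3L, PFKM, HK1 and P4HA2 were higher by 0.35 to 0.63. The transporters thus differed in opposite directions, and so did PFKFB3 and PFKFB4.

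VEGFA depended on 1 library. YAP-TFE3 libraries 1 and 2, at 189 and 192 CPM, were above the YAP5SA range of 90 to 101 CPM, and library 3, at 53.3 CPM, was below it. The log2 fold change against YAP5SA was 0.61 (SE 0.27, edgeR adjusted p = 0.0592), and 1.06 without the number 3 libraries (edgeR adjusted p = 1.79e-07). EGLN3 went the other way. It was higher by 0.77 (edgeR adjusted p = 0.0138) with all libraries, with 32.7, 34.1 and 54.7 CPM in YAP-TFE3 against 30.7, 27.8 and 12.9 CPM in YAP5SA, and by 0.19 (edgeR adjusted p = 0.405) without the number 3 libraries.

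**Figure D4:**
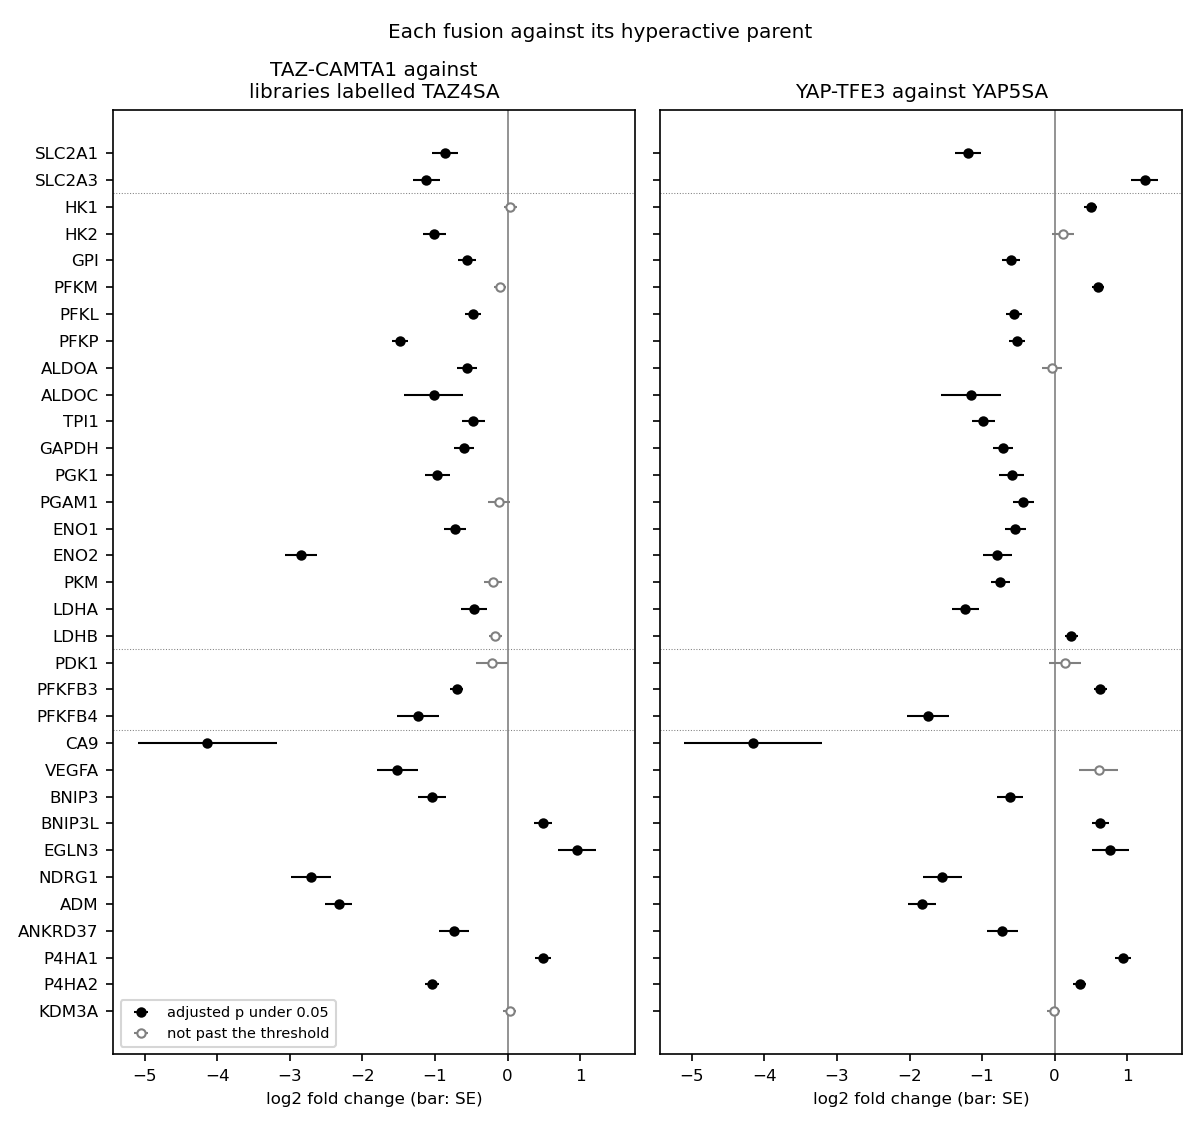
Log2 fold change with its SE for the 33 genes in TAZ-CAMTA1 against the libraries labelled TAZ4SA (left) and YAP-TFE3 against YAP5SA (right), where filled points have an edgeR adjusted p under 0.05. The left panel has 23 filled points below 0 and 3 above (BNIP3L, EGLN3 and P4HA1), and the right panel has 19 below and 9 above.

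For TAZ-CAMTA1 against the libraries labelled TAZ4SA, 26 of the 33 passed, 3 higher and 23 lower, where 53.7% of all tested genes were called, 26.9% higher and 26.8% lower, and the median over the 33 was -0.70. With the number 3 libraries left out, 3 were higher and 24 lower, and 10384 of all genes were called, against 10730 with all libraries. The HIF targets CA9 (-4.14), NDRG1 (-2.71), ADM (-2.33) and VEGFA (-1.52) and the enzymes ENO2 (-2.85) and PFKP (-1.48) led the lower genes. For NDRG1, TAZ-CAMTA1 libraries were at 127, 84 and 65.6 CPM, all below the lowest library labelled TAZ4SA. BNIP3L (0.49), EGLN3 (0.96) and P4HA1 (0.49) were higher. EGLN3 was at 50.9, 44.2 and 39.1 CPM with TAZ-CAMTA1 and at 20, 30.9 and 18.1 CPM in the libraries labelled TAZ4SA, without overlap (SE 0.26, edgeR adjusted p = 0.00281). The direction of all these differences carries the doubt about the TAZ4SA label given above.

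Between the fusions, 2 genes were higher and 15 lower with TAZ-CAMTA1 than with YAP-TFE3, where 42.7% of all tested genes were called, 19.9% higher and 22.8% lower. LDHA (0.65) and TPI1 (0.41) were the higher ones, the latter lost in 4 of the 6 fits that left out 1 library. VEGFA (-2.14), SLC2A3 (-2.10), ENO2 (-1.63), P4HA2 (-1.38), HK2 (-1.18) and PFKFB3 (-1.15) led the lower ones. Without the number 3 libraries the counts were 9 higher and 14 lower. PFKFB4, at 26.3, 18.7 and 15.2 CPM with TAZ-CAMTA1, was then higher than with YAP-TFE3 by 0.97 (edgeR adjusted p = 1.09e-05), against 0.53 (edgeR adjusted p = 0.15) with all libraries.

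The balance of isoenzymes within a step differed between constructs. These shares are fractions of CPM per kb of exon within a family, given per library as a description without a test. Their size depends on the merged exon lengths, such as 6026 bases for LDHA and 2983 for LDHB. Undivided, EV library 1 held 35396 counts of LDHA and 17514 of LDHB. SLC2A3 made up 78.9, 78 and 75.6% of SLC2A1 plus SLC2A3 with YAP-TFE3, 39.4, 39.4 and 51.2% in EV and 42.9, 38 and 34.2% with YAP5SA. YAP-TFE3 libraries were thus above those of both other groups. LDHA made up 30.7, 31.6 and 33.9% of LDHA plus LDHB with YAP-TFE3, 50, 49.7 and 46.9% in EV and 61.5, 61.4 and 45.3% with YAP5SA. The YAP-TFE3 libraries were the lowest here, and YAP5SA library 3 lay below the EV range.

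PFKP, the least abundant phosphofructokinase in EV at 22.7 ± 0.201% (SD, n = 3), was the most abundant in the libraries labelled TAZ4SA at 41.9 ± 0.198% and with YAP5SA at 38.8 ± 0.841%, while PFKM was the most abundant with YAP-TFE3 at 44.2 ± 1.15%. In sub-confluent cells PFKP made up 30.9 ± 0.846% in EVsub and 38.2 ± 2.73% with CAMTA1. HK2 made up 12.3 ± 1.47% of HK1, HK2 and HKDC1 in EV and 24.3 ± 0.95% with YAP5SA. HKDC1, a hexokinase outside the list of 33, was at 21.1, 21.1 and 11.7% with YAP-TFE3 and at 1.27 ± 0.183% in EV. PFKFB4 made up 8.44, 8.08 and 13.7% of PFKFB2, PFKFB3 and PFKFB4 with YAP-TFE3 and 33.3, 32.3 and 26.6% in EV. ALDOC made up 9.59, 11.5 and 12.2% of ALDOA plus ALDOC with CAMTA1 and 2.82, 3.36 and 2.03% in EVsub.

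**Figure D5:**
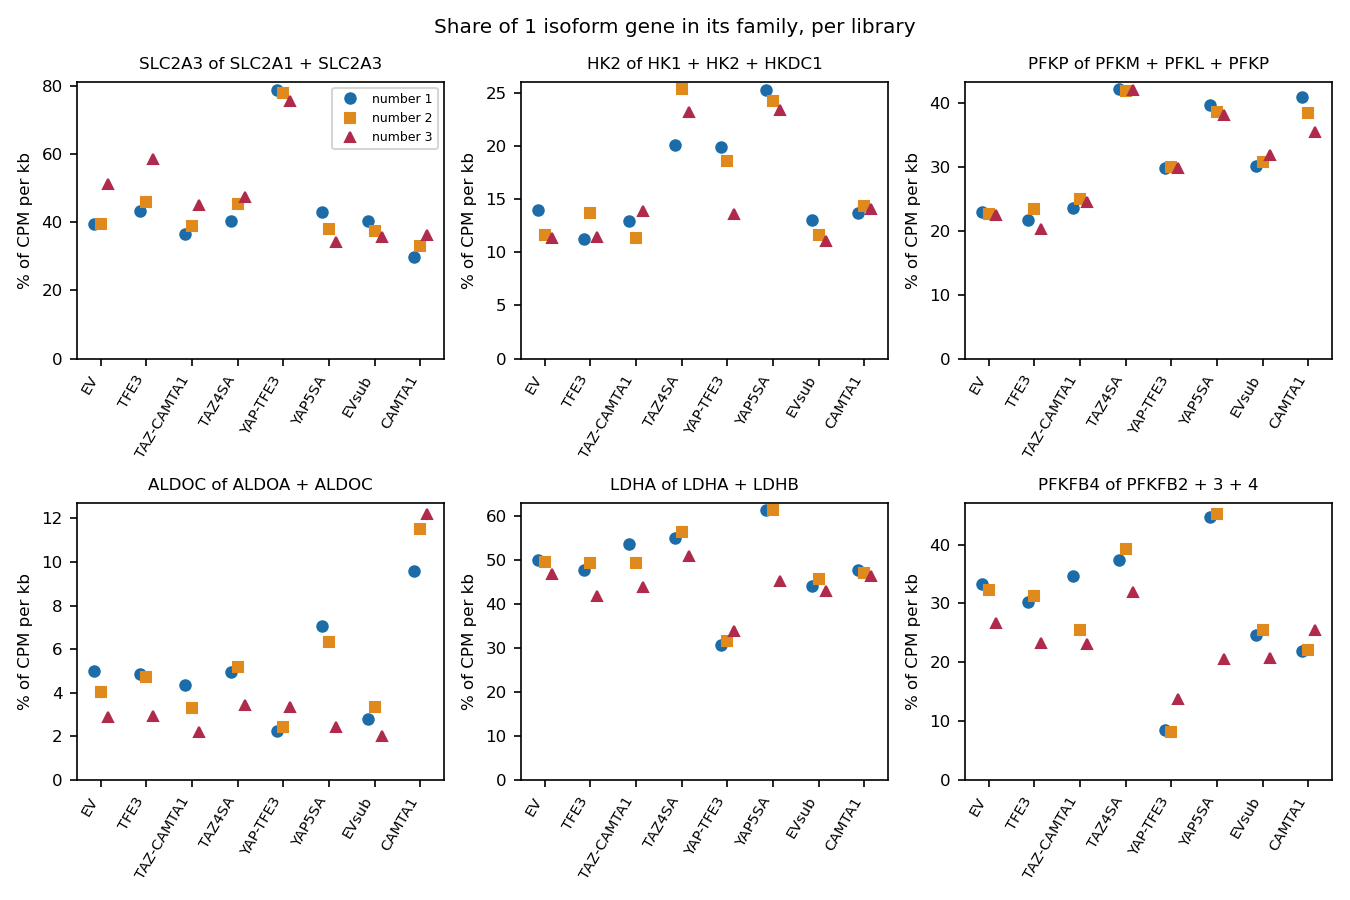
Share of 1 gene in its family, as a percent of CPM per kb of exon, for 6 families in every library of the 8 groups. YAP-TFE3 libraries are highest for SLC2A3 (75.6 to 78.9%) and lowest for LDHA (30.7 to 33.9%) and PFKFB4 (8.08 to 13.7%), and CAMTA1 libraries are highest for ALDOC (9.59 to 12.2%).

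Lists of neighbouring pathways were counted in the same fits, with all libraries, and are to be read against the 48.2% of all tested genes called with YAP-TFE3, 44.3% with YAP5SA, 49.2% in the libraries labelled TAZ4SA and 36.8% in EVsub. Of 9 genes for HIF subunits and oxygen sensors, 6 rose with YAP-TFE3, 3 rose in the libraries labelled TAZ4SA and 2 rose with YAP5SA. The latter shares, 33.3% and 22.2%, were below those of all genes. HIF1A was at 274, 244 and 250 CPM in EV and at 622, 500 and 363 CPM with YAP-TFE3, without overlap, and rose by 0.95. EPAS1, the gene of HIF-2 alpha, rose by 1.01 with YAP-TFE3, by 0.80 with YAP5SA and by 0.95 in the libraries labelled TAZ4SA, and ARNT rose by 0.43 with YAP-TFE3. In EVsub 3 of the 9 were higher and 2 lower, with HIF1A at 0.80, EPAS1 at 0.64 and ARNT at -0.36. With TAZ-CAMTA1, HIF1A was at 0.25 and EPAS1 at 0.27 (edgeR adjusted p = 0.449 and 0.0876). These are RNA levels, and HIF activity is set largely by protein stability.

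Of 20 further hypoxia-induced genes, 10 rose and 2 fell with YAP-TFE3 (60% called, against 48.2% of all genes), 10 rose and 2 fell with YAP5SA (60% against 44.3%), and 9 rose and 4 fell in the libraries labelled TAZ4SA (65% against 49.2%). LOX, the collagen crosslinking oxidase, led each time, with log2 fold changes of 4.10, 2.93 and 2.66, and was the only 1 of the 20 to pass with TAZ-CAMTA1, at 2.10. STC2 (stanniocalcin) followed at 3.46, 2.69 and 2.44, although its YAP-TFE3 libraries were at 581, 612 and 214 CPM. CA12, a carbonic anhydrase like CA9, fell with YAP5SA (-1.96) and in the libraries labelled TAZ4SA (-1.41). Of 11 genes for lactate and pyruvate transport and pyruvate dehydrogenase, 5 rose with YAP5SA (45.5% called, against 44.3% of all genes). In the libraries labelled TAZ4SA 2 rose and 1 fell (27.3% against 49.2%), and 6 rose and 1 fell with YAP-TFE3 (63.6% against 48.2%). In EVsub 8 were higher and 1 lower (81.8% against 36.8%). SLC16A3, the lactate exporter MCT4, rose by 1.42, 1.38 and 0.64 with YAP5SA, in the libraries labelled TAZ4SA and with YAP-TFE3.

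Of the 15 other glycolytic isoenzymes and relatives 11 were tested. HKDC1 rose by 4.57 with YAP-TFE3, and PDK4, a relative of PDK1, fell with YAP5SA (-2.77) and in the libraries labelled TAZ4SA (-3.14). FBP1, the gluconeogenic fructose bisphosphatase, rose by 3.49 and 2.83 in those comparisons. Of 7 pentose phosphate genes, 5 rose with YAP5SA and 5 in the libraries labelled TAZ4SA, where 22.7% and 25.1% of all genes rose, and 1 rose and 1 fell with YAP-TFE3. Of 9 glycogen genes, 7 rose and 1 fell with YAP5SA, and likewise 7 and 1 in the libraries labelled TAZ4SA (88.9% called, against 44.3% and 49.2% of all genes), while 4 rose and 2 fell with YAP-TFE3. PYGB, a glycogen phosphorylase, rose by 1.08 and 1.23. With CAMTA1, PYGL (0.51) and PYGB (0.45) passed against EVsub. Of 10 genes for other glucose carriers and MondoA targets, 1 was higher and 5 lower in EVsub (60% called, against 36.8% of all genes), led by TXNIP (-2.09), which restrains glucose uptake, and ARRDC4 (-1.55). With YAP-TFE3, 5 of the 10 rose and 2 fell (70% against 48.2%). SLC2A4 (GLUT4), the insulin-regulated carrier, was at 10.4, 11.9 and 13.8 CPM in EV and at 26.2, 29.6 and 36.6 CPM with YAP-TFE3, without overlap, and rose by 1.36 (SE 0.14, edgeR adjusted p = 2.09e-08). SLC2A13 rose by 1.29 and ARRDC4 by 1.12.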

How the data were processed

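Poly(A) RNA was sequenced with a stranded kit. For each library the authors deposited a table of raw counts against Ensembl gene identifiers. Alignment was to hg38 with Hisat2 within bcbio-nextgen 1.0.8, per the labels and the study's methods. The counting tool, its use of strand and its treatment of reads with several alignments are not given in the sources used here. The authors tested salmon estimates with DESeq2. Groups and replicate numbers came from the sample titles.

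All 24 libraries were fitted together in edgeR 4.0.16 (R 4.3.3) with TMM scaling, 1 mean per group and a minimum average of 5 counts for a gene to be tested, and p-values were adjusted by Benjamini-Hochberg. The fit was tested on simulated counts with a small set of genes changed in the YAP-TFE3 libraries only. Its behaviour with as many genes changed as were called here was not tested. Exon lengths came from GENCODE 44, and promoter windows from RefSeq. Alternatives were DESeq2 1.42.0, other scalings and filters, only the groups compared, the replicate block and each library left out.

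The 33 genes were named from a given list, with no values used. From each pathway list, at most the 3 called genes with the largest absolute log2 fold change per direction and comparison were named, plus HIF1A, EPAS1 and ARNT. The genes and lists were chosen with earlier results of these data known. Some members of the pathway lists are not reported here.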

Additional observations from a re-analysis of the deposited data

How the results depend on the processing

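Without a filter on low counts, 3 of the 33 genes passed with TAZ-CAMTA1, 14 in EVsub and 2 with CAMTA1, against 1, 5 and 1. With only the groups compared in the fit these were 2, 16 and 2. Without the number 3 libraries 14 passed in EVsub and 4 with CAMTA1. Calls over all genes with TAZ-CAMTA1, in EVsub and with CAMTA1 were 996, 7368 and 366 in the main fit. They were 1367, 6750 and 652 without the filter, and 1342, 8429 and 662 with only the groups compared. Without the number 3 libraries they were 921, 6378 and 742. Leaving out 1 library gave 0 to 1 with TAZ-CAMTA1 (0 without EV library 2 or 3 or TAZ-CAMTA1 library 1 or 2), 19 to 20 in the libraries labelled TAZ4SA, 16 to 17 with YAP-TFE3, 18 to 26 with YAP5SA, 0 with TFE3, 4 to 6 in EVsub and 1 with CAMTA1. It gave 23 to 26 for TAZ-CAMTA1 against the libraries labelled TAZ4SA, 23 to 28 for YAP-TFE3 against YAP5SA and 13 to 17 between the fusions. No gene changed direction while called in both fits. The causes of the moved counts were not tested.

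Libraries with the same number did not deviate together in every pair (mean correlation of deviations -0.0257 to 0.129). In 1 of 10 comparisons, YAP-TFE3 against EV, every library correlated best with its own number. The main fit therefore held no term for the number. For the genes of the list the number was still not a mere name. The number 3 library was the lowest for 18 to 31 of them in the 7 groups other than YAP-TFE3. With the replicate block the counts, in the order of comparison above and then for the direct comparisons, were 1, 19, 18, 26, 0, 6, 1, 26, 27 and 18. Precision is limited by 3 libraries per group and, for CA9, by 2 to 326 counts per library.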
